A study of Homo sapiens with 18 samples.

Results

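Y RNAs are short non-coding RNAs that most vertebrate cells make in abundance. The 4 human Y RNA genes, RNY1, RNY3, RNY4 and RNY5, were taken by name from a table of 2462 small RNA features, and all 4 were found in it. They were measured in HEK293T, a human embryonic kidney cell line that carries the SV40 large T antigen, and in the extracellular vesicles (EVs) that its cultures released. Cells and vesicles came from wild type (WT) cultures, from the ATG7-/- clone F2 and from the ATG12-/- clone D9, and all cultures, WT included, had been grown with fetal bovine serum and then starved of serum for 24 h. ATG7 and ATG12 belong to the machinery that attaches LC3 and related proteins to membrane lipids in autophagy. The study asked how loss of that machinery alters the RNA found in vesicles. Each of the 6 groups holds 3 libraries, which the labels call biological replicates, and each knockout is 1 clone, so a knockout effect and a difference between clones cannot be told apart. The ATG7 and ATG12 mRNAs and marker genes of the cell line are not analysed here.

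Y RNAs are transcribed by RNA polymerase III. Their ends pair into a stem whose lower part binds the protein Ro60, and the run of uridines at the end binds La. The loop differs between family members and binds other proteins. Full-length Y RNAs and their fragments are known from extracellular vesicles and from blood. Per the labels' protocols, libraries came from total RNA with a SMARTer small RNA kit, 12 cycles of PCR and single reads of 50 bases. Such reads are shorter than every Y RNA, and the table gives 1 value per RNA, so whole Y RNAs and fragments cannot be told apart.

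The 4 genes lie in a stretch of 45761 bases of chromosome 7 in the GRCh38 build. RNY5 spans bases 148941488 to 148941571 (84 bases, RefSeq GRCh38.p14), RNY4 148963315 to 148963410 (96 bases, plus strand) and RNY1 148987136 to 148987248 (113 bases, minus strand). None of these 3 overlaps another gene of GENCODE release 29, where RNY1 and RNY4 are listed as genes of their own. The nearest protein-coding gene is PDIA4 for RNY1, 15814 bases away, and for RNY4, and EZH2 for RNY5. RNY5 is not in GENCODE release 29, and the sequence of RNY3 is not reported here. The RNAs of RNY1 and RNY4 are shown. They are written as DNA, 5′ to 3′, from the GENCODE release 29 transcripts, with the 11 bases that both share at the start and the closing run of T in capitals.
RNY1: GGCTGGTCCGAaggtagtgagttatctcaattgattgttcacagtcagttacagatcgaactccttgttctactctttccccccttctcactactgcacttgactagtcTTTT
RNY4: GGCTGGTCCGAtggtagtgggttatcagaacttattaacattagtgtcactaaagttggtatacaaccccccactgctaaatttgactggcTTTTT

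The shared start is part of the 5′ strand of the stem that pairs the ends. A minimum free energy fold joined the first 35 to the last 35 bases by 17 pairs in RNY1 and 20 in RNY4. The pair was identical at 72 of 113 aligned positions (63.7%) and shared no run longer than the 11 bases of the start. GENCODE release 29 also names 53 Y RNA pseudogenes. The first 20 bases of RNY1 and RNY4 occur in transcripts of 1 and 5 other GENCODE genes, the first 30 in 0 and 4, and the first 50 bases of each in 0. The last 30 bases of RNY1 and RNY4 occur in 2 and 0, and the last 50 bases of each in 0. The handling of reads with more than 1 matching copy is not given in the sources used here, so the level of each RNA is uncertain to the extent that copies shared its reads.

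Depth left little counting error. Vesicle libraries held 1881080 to 3382605 reads assigned to features and cell libraries 1188388 to 1804089. Of these, 26898 to 46152 per vesicle library and 41394 to 72642 per cell library were Y RNA reads, and the smallest single value was 2805 reads (RNY1 in WT vesicles, replicate 3). Levels are given as normalised reads, the reads of a library over its 1 size factor. All fold changes use the scale of log2(normalised reads + 1), with their standard error (SE) and with limma's p adjusted over all features tested. A call is an adjusted p under 0.05. In such bulk samples a change in the number of vesicles or cells and a change in RNA per vesicle or cell cannot be told apart.

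The make-up of the Y RNA pool differed between vesicles and cells and between WT and knockout vesicles. RNY5 was the major Y RNA of WT vesicles, with 57.0, 63.9 and 65.1% of their Y RNA reads. It made up 40.4, 38.1 and 31.8% in ATG7-/- vesicles and 35.5, 37.0 and 36.4% in ATG12-/- vesicles, all below the lowest WT vesicle library. In cells the major Y RNA was RNY3, with 40.6% ± 2.92 (SD, n = 3) in WT, 41.3% ± 4.10 in ATG7-/- and 48.2% ± 2.46 in ATG12-/- cells, and RNY5 held 23.3% ± 2.17, 22.0% ± 4.17 and 16.1% ± 2.83. These shares do not depend on how libraries were scaled to each other.

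**Figure D1:**
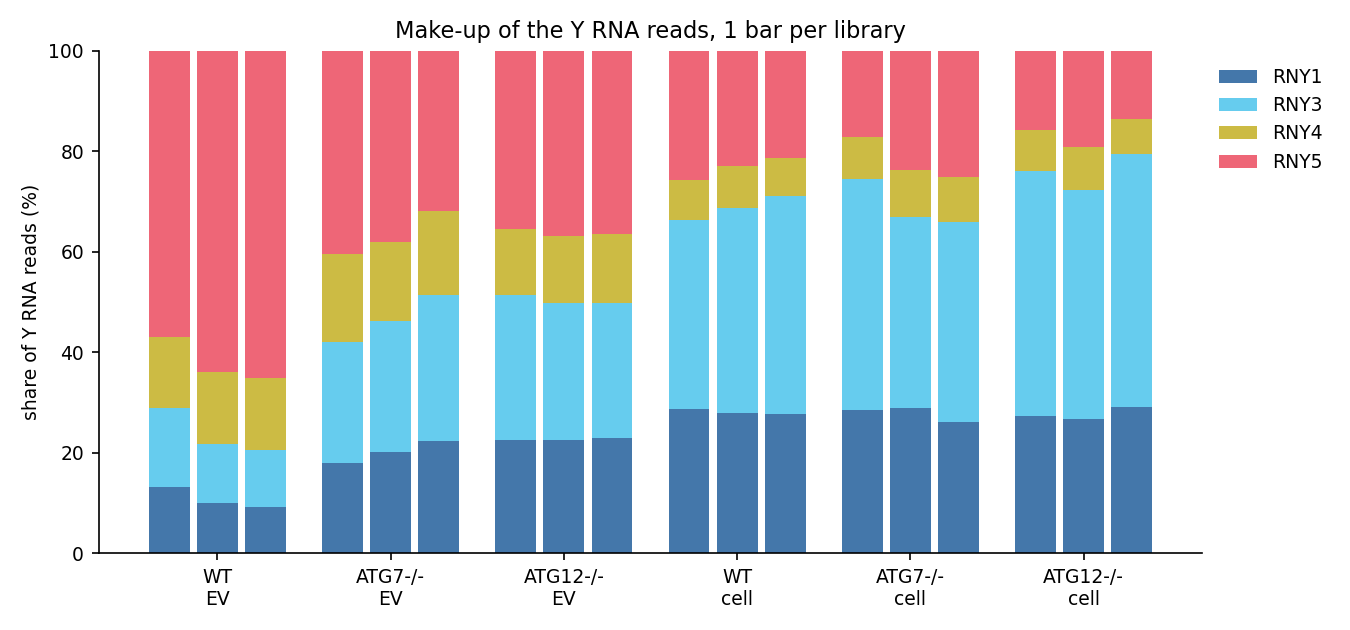
Share of each library's Y RNA reads (y axis, percent) taken by RNY1, RNY3, RNY4 and RNY5, with 1 bar per library and 3 libraries per group (x axis). The RNY5 segment covers 57.0 to 65.1% in WT vesicles, 31.8 to 40.4% in the 6 knockout vesicle libraries and 13.5 to 25.7% in the 9 cell libraries.

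RNY1 and RNY3 held larger shares of the Y RNA reads in knockout than in WT vesicles. RNY1 held 13.2, 10.0 and 9.27% of Y RNA reads in WT vesicles, 17.9, 20.1 and 22.4% in ATG7-/- vesicles and 22.6, 22.5 and 23.0% in ATG12-/- vesicles. RNY3 held 15.7, 11.7 and 11.2% in WT, 24.0, 26.1 and 28.98% in ATG7-/- and 28.8, 27.2 and 26.7% in ATG12-/- vesicles. For both RNAs every knockout vesicle library lay above every WT one and below every cell library of its genotype. RNY4 moved least, with 14.3% ± 0.176 in WT, 16.7% ± 0.907 in ATG7-/- and 13.5% ± 0.344 in ATG12-/- vesicles, and 7.95 to 8.87% as group means in cells.

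Ratios between pairs of Y RNAs within a library put a test on this shift. The 6 knockout vesicle libraries were compared with the 3 WT ones, since 3 against 3 cannot give a p under 0.1. The log2 ratio of RNY3 to RNY5 was 1.85 higher in knockout vesicles, with group means of -2.28 ± 0.37 (SD) in WT, -0.48 ± 0.31 in ATG7-/- and -0.40 ± 0.08 in ATG12-/-. The ratio of RNY1 to RNY5 was 1.76 higher, RNY3 to RNY4 1.02 higher, RNY1 to RNY4 0.93 higher and RNY4 to RNY5 0.83 higher. Each of these 5 ratios had p = 0.0119 in a two-sided exact permutation test, the smallest the design can give, and p = 0.0214 adjusted over the 18 ratio tests, and in none did the groups overlap. The ratios are built from the same 4 RNAs, so they are not independent results. The test also treats the 6 libraries of the ATG7-/- clone and the ATG12-/- clone as 1 group. The ratio of RNY1 to RNY3 differed by -0.09 and was not called (exact permutation test, adjusted p = 0.148). By clone, ATG7-/- vesicles (-0.42 to -0.37) lay below WT (-0.27 to -0.22), while ATG12-/- vesicles (-0.35 to -0.22) overlapped WT.

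Without WT vesicle replicate 1, 2 or 3 the number of ratios called fell to 0, at an adjusted p of 0.0643 for each of the 5 (exact permutation test), in a design of 2 libraries against 6 that allows fewer regroupings. In cells 0 of the 6 ratios were called between the pooled knockouts and WT by the same exact permutation test. The smallest unadjusted p was 0.0476, for RNY4 to RNY5 (0.41 higher, adjusted p = 0.0714), the only ratio under an unadjusted 0.05. By clone, the ratios of ATG7-/- cells all overlapped WT. In ATG12-/- cells RNY3 to RNY5 ran from 1.25 to 1.90, above WT cells (0.55 to 1.02). There RNY1 to RNY5 and RNY4 to RNY5 also lay above WT and RNY1 to RNY3 below it, while RNY1 to RNY4 and RNY3 to RNY4 overlapped WT. The clones were not tested singly.

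RNY1 and RNY3 rose in the vesicles of both knockouts. RNY3 stood at 6655, 5919 and 4933 normalised reads in the WT vesicle libraries, at 11921, 14068 and 15214 in ATG7-/- vesicles and at 13378, 13430 and 13559 in ATG12-/- vesicles. Every knockout library was thus far above the highest WT library. The log2 fold change of RNY3 was 1.24 (SE 0.12, adjusted p = 1.81e-06) in ATG7-/- and 1.22 (SE 0.12, adjusted p = 1.36e-05) in ATG12-/- vesicles.

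RNY1, the longest of the family, gave the same picture. Its levels were 5570, 5089 and 4092 in WT vesicles, 8896, 10820 and 11768 in ATG7-/- and 10499, 11069 and 11672 in ATG12-/- vesicles. The groups did not overlap. The log2 fold change was 1.10 (SE 0.13, adjusted p = 9.94e-06) in ATG7-/- and 1.18 (SE 0.13, adjusted p = 2.09e-05) in ATG12-/- vesicles. Both knockouts were compared with the same 3 WT libraries, so their values are not independent.

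RNY5, the shortest member, fell in the vesicles of both knockouts with the deposited size factors. Its levels were 24104, 32372 and 28757 in WT vesicles, 20038, 20508 and 16704 in ATG7-/- and 16485, 18221 and 18468 in ATG12-/- vesicles. The lowest WT library lay above every knockout library. The log2 fold change was -0.57 (SE 0.12, adjusted p = 0.00113) in ATG7-/- and -0.67 (SE 0.12, adjusted p = 0.000619) in ATG12-/- vesicles. With libraries scaled to their totals without tRNA genes, an alternative added after seeing the data, the ATG7-/- value turned to 0.38 (adjusted p = 0.104). Even so RNY5 remained the most abundant Y RNA in all 9 vesicle libraries, ranking 17 among all features in each WT vesicle library and 19 to 21 in the knockouts.

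RNY4 was called in ATG7-/- vesicles and not in ATG12-/- vesicles. Its levels were 5973, 7296 and 6380 in WT vesicles, 8716, 8502 and 8808 in ATG7-/- and 6133, 6568 and 7020 in ATG12-/- vesicles. The 3 ATG7-/- libraries were the highest of the 9, while ATG12-/- and WT overlapped. The log2 fold change was 0.41 (SE 0.10, adjusted p = 0.00347) in ATG7-/- vesicles and 0.01 (95% interval -0.22 to 0.23, adjusted p = 0.949) in ATG12-/- vesicles. With library totals these became 0.03 (adjusted p = 0.833) and -0.35 (adjusted p = 0.0390), and with TMM factors (trimmed mean of M values) from microRNAs 0.04 (adjusted p = 0.869) and -0.37 (adjusted p = 0.140).

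In all, 4 of the 4 Y RNAs were called in ATG7-/- vesicles, where 62.5% of all tested features were called in either direction and 68% had groups that did not overlap. In ATG12-/- vesicles 3 of 4 were called, against 43.6% of all features, and 52.7% of all features had groups that did not overlap. Calls were therefore common among small RNAs at large. The median log2 fold change of the Y RNAs was 0.75 in ATG7-/- and 0.60 in ATG12-/- vesicles, beside 0.11 and 0.05 over all features tested. This median lies between RNY4 and RNY1 and hides the fall of RNY5. Summed over the 4 Y RNAs, vesicles held 45713 ± 4398 normalised reads (SD, n = 3) in WT, 51988 ± 2208 in ATG7-/- and 48834 ± 2148 in ATG12-/-. Both knockouts overlapped WT.

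**Figure D2:**
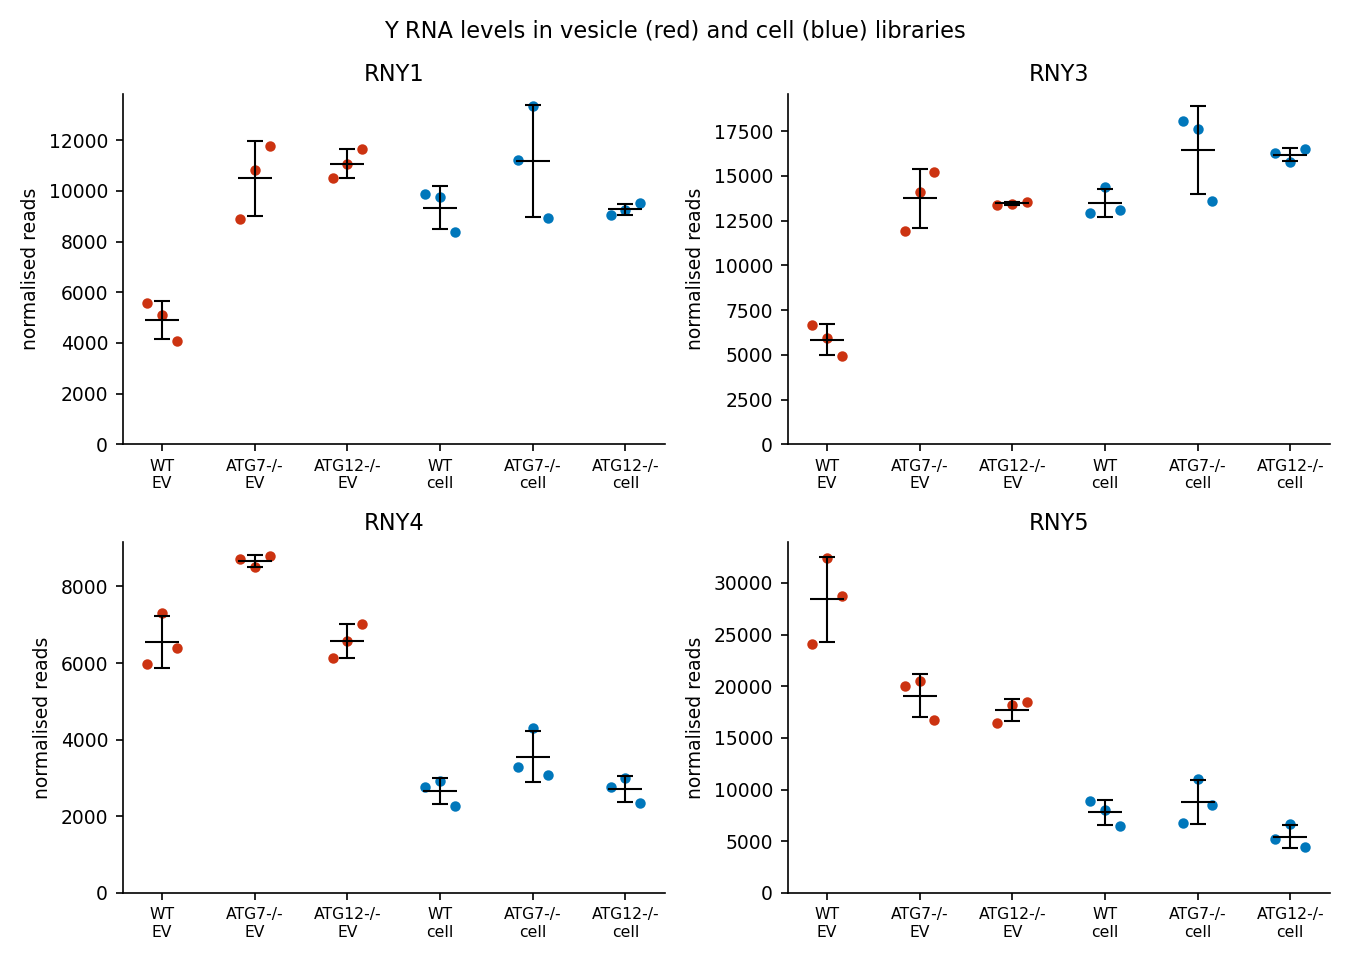
Normalised reads (y axis, from 0, a separate scale in each panel) of RNY1, RNY3, RNY4 and RNY5 in the 6 groups (x axis), with vesicles in red and cells in blue. Points are libraries, the long bar is the mean of 3 and the whiskers are 1 SD. WT vesicles hold the lowest RNY1 and RNY3 and the highest RNY5, and RNY4 is higher in all 9 vesicle libraries than in all 9 cell libraries.

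The direct comparison of the 2 knockouts in vesicles called RNY4 alone, 1 of 4 against 49.9% of all features (58.7% did not overlap). It was lower in ATG12-/- than in ATG7-/- vesicles by a log2 fold change of -0.40 (SE 0.10, adjusted p = 0.00584). For the others the 95% intervals of ATG12-/- against ATG7-/- ran from -0.20 to 0.38 for RNY1, from -0.29 to 0.25 for RNY3 and from -0.37 to 0.16 for RNY5. Differences of the size seen against WT in RNY1 and RNY3 lie outside these intervals, though smaller ones do not. With TMM factors from microRNAs the RNY4 value was -0.41 but was no longer called (adjusted p = 0.105), and with totals without tRNA genes, added after seeing the data, all 4 Y RNAs were called lower in ATG12-/- vesicles, by -0.94 (RNY1), -1.05 (RNY3), -1.43 (RNY4) and -1.13 (RNY5).

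In cells limma called no Y RNA between a knockout and WT with the deposited size factors. RNY3 was highest there, at 12942, 14359 and 13114 normalised reads in WT, 18070, 17626 and 13584 in ATG7-/- and 16277, 15772 and 16496 in ATG12-/- cells. The ATG7-/- libraries overlapped WT through replicate 3, and the ATG12-/- libraries all lay above WT. The log2 fold changes against WT were 0.28 (95% interval -0.04 to 0.59, adjusted p = 0.195) and 0.27 (95% interval -0.05 to 0.58, adjusted p = 0.201).

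RNY1 in cells was at 9888, 9781 and 8371 in WT, 11232, 13351 and 8922 in ATG7-/- and 9070, 9245 and 9520 in ATG12-/-. Its groups overlapped, with log2 fold changes of 0.24 (95% interval -0.10 to 0.58, adjusted p = 0.291) and -0.01 (95% interval -0.35 to 0.33, adjusted p = 0.978). RNY4 was at 2769, 2921 and 2266 in WT, 3272, 4306 and 3073 in ATG7-/- and 2764, 3006 and 2340 in ATG12-/- cells. Its ATG7-/- libraries lay above WT, but the difference of 0.41 missed the threshold (95% interval 0.05 to 0.77, adjusted p = 0.108), and in ATG12-/- cells it was 0.03 (95% interval -0.33 to 0.39, adjusted p = 0.915).

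RNY5 in cells was at 8854, 8039 and 6472 in WT, 6793, 10978 and 8547 in ATG7-/- and 5231, 6631 and 4431 in ATG12-/-. WT overlapped both knockouts. The log2 fold changes were 0.16 (95% interval -0.28 to 0.59, adjusted p = 0.623) and -0.53 (95% interval -0.96 to -0.10, adjusted p = 0.0678). The ATG12-/- difference from WT was called by DESeq2 on the recovered reads (-0.52, adjusted p = 0.0481) and by limma with all 18 libraries in the fit (adjusted p = 0.0490) or with a replicate block (adjusted p = 0.0498). Between the knockouts RNY5 was lower in ATG12-/- than in ATG7-/- cells (-0.68, SE 0.20, adjusted p = 0.0301), and this call was lost without ATG12-/- replicate 1, ATG12-/- replicate 3 or ATG7-/- replicate 2 and under several settings.

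By limma, 0 of 4 Y RNAs were called in ATG7-/- cells, against 16.8% of all features (35.2% did not overlap). In ATG12-/- cells the count was also 0 of 4, against 25.7% (48.5% did not overlap), and between knockout cells it was 1 of 4, against 20% (34.2% did not overlap). At an unadjusted p under 0.05 RNY4 passed in ATG7-/- cells and RNY5 in ATG12-/- cells, as their intervals show. DESeq2 on the recovered reads called 0 of 4 in ATG7-/- and 1 of 4 in ATG12-/- cells. With library totals RNY3 was called higher in both, at 0.37 (adjusted p = 0.0284) in ATG7-/- and 0.49 (adjusted p = 0.00493) in ATG12-/- cells, and RNY4 in ATG7-/- cells at 0.50 (adjusted p = 0.0471). Without ATG7-/- replicate 3, RNY3 was called in ATG7-/- cells (0.41, adjusted p = 0.0246), and without ATG12-/- replicate 2, RNY5 was called in ATG12-/- cells (-0.68, adjusted p = 0.0479).

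**Figure D3:**
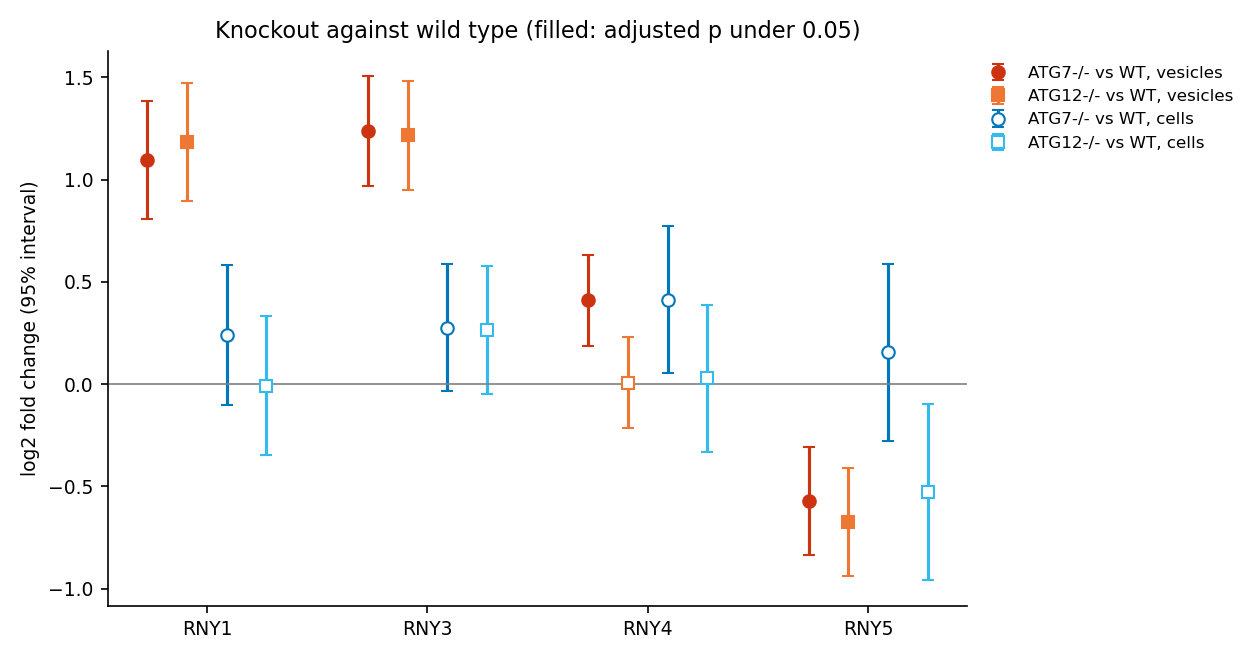
Log2 fold change of knockout against WT (y axis) for each Y RNA (x axis), in vesicles (red and orange) and cells (blue and light blue). Points are limma estimates from 3 libraries per group, bars are 95% intervals, and filled points have an adjusted p under 0.05. RNY1 and RNY3 stand at 1.10 to 1.24 in vesicles and between -0.01 and 0.28 in cells, and no point for cells is filled.

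Whether the change in vesicles exceeded that in cells was tested directly, over all 18 libraries. The vesicle change minus the cell change was 0.85 (SE 0.23, adjusted p = 0.00318) for RNY1 and 0.96 (SE 0.21, adjusted p = 0.000618) for RNY3 in ATG7-/-. In ATG12-/- it was 1.19 (SE 0.23, adjusted p = 0.000719) for RNY1 and 0.95 (SE 0.21, adjusted p = 0.00235) for RNY3. The change of this pair was thus larger in vesicles than in cells for both clones with the deposited size factors. With library totals 3 of these 4 calls were lost, at 0.39 (adjusted p = 0.158) for RNY1 and 0.50 (adjusted p = 0.0561) for RNY3 in ATG7-/- and 0.37 (adjusted p = 0.180) for RNY3 in ATG12-/-, and the last was also lost with totals without tRNA genes (0.48, adjusted p = 0.123).

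For RNY5 the same difference was called in ATG7-/- (-0.73, SE 0.26, adjusted p = 0.0235) and not in ATG12-/- (-0.14, 95% interval -0.69 to 0.40, adjusted p = 0.721). The ATG7-/- call for RNY5 was lost without WT vesicle replicate 2 (-0.63), ATG7-/- vesicle replicate 3 (-0.63), WT cell replicate 3 (-0.60) or ATG7-/- cell replicate 2 (-0.55). It was also lost with no filter on low values (-0.73, adjusted p = 0.0751) and with TMM factors from microRNAs (-0.44, adjusted p = 0.193), and it turned to 0.070 (adjusted p = 0.862) with totals without tRNA genes. In ATG12-/- library totals gave a call (-0.73, adjusted p = 0.0492). For RNY4 the difference was near 0 in both, with 95% intervals of -0.44 to 0.44 in ATG7-/- and -0.46 to 0.42 in ATG12-/-, but it was called at -0.60 (adjusted p = 0.0432) in ATG12-/- with library totals and at 0.79 (adjusted p = 0.0184) in ATG7-/- with totals without tRNA genes. These counts, 3 of 4 in ATG7-/- and 2 of 4 in ATG12-/-, stand beside 55% and 26.4% of all features.

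Vesicles and cells of WT cultures differed in all 4 Y RNAs, with RNY4 and RNY5 higher and RNY1 and RNY3 lower in vesicles. Among all features 81.8% were called and 83.8% did not overlap between WT vesicles and cells. The log2 fold changes, vesicle against cell, were 1.87 (SE 0.19, adjusted p = 5.28e-09) for RNY5, 1.31 (SE 0.15, adjusted p = 4.95e-08) for RNY4, -0.93 (SE 0.16, adjusted p = 1.53e-05) for RNY1 and -1.22 (SE 0.15, adjusted p = 1.31e-07) for RNY3. In the knockouts RNY4 and RNY5 were again higher in vesicles. RNY4 stood at 1.30 (SE 0.15, adjusted p = 3.96e-08) in ATG7-/- and 1.29 (SE 0.15, adjusted p = 5.65e-08) in ATG12-/-, and RNY5 at 1.14 (SE 0.19, adjusted p = 6.93e-06) and 1.72 (SE 0.19, adjusted p = 1.75e-08).

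RNY1 and RNY3 were not called between knockout vesicles and cells with the deposited size factors and all 18 libraries in the fit. For RNY1 the difference was -0.08 (95% interval -0.41 to 0.25) in ATG7-/- and 0.25 (95% interval -0.08 to 0.59) in ATG12-/-, and for RNY3 -0.25 (95% interval -0.56 to 0.05) and -0.27 (95% interval -0.57 to 0.04). So 2 of 4 Y RNAs were called in each knockout, against 82.8% of all features in ATG7-/- and 80.3% in ATG12-/- (84.9 and 85% did not overlap). Fitted on the 6 ATG12-/- libraries alone, the same values of RNY1 (adjusted p = 0.0214) and RNY3 (adjusted p = 0.0163) were called.

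The level of a Y RNA in vesicles relative to cells rests on how the libraries are scaled. With library totals RNY4 and RNY5 came out lower in ATG7-/- vesicles than in ATG7-/- cells (-0.68 and -0.84), RNY4 turned to -0.21 in WT and to -0.82 in ATG12-/-, and RNY5 stood at 0.35 in WT (not called) and -0.38 in ATG12-/-. RNY1 and RNY3 were called lower in vesicles of both knockouts, at -2.06 and -2.24 in ATG7-/- and at -1.85 and -2.37 in ATG12-/-. With totals without tRNA genes RNY3 was called lower too, at -0.36 in ATG7-/- and -1.64 in ATG12-/-, and with TMM over all features at -0.46 and -0.52. The order of the Y RNAs relative to each other is free of this choice: over the 9 libraries of each, vesicles minus cells, the log2 ratio of RNY3 to RNY5 differed by -2.16, RNY3 to RNY4 by -1.88, RNY1 to RNY5 by -1.83 and RNY1 to RNY4 by -1.55. Each had p = 0.00025 in a two-sided exact permutation test within genotypes, the smallest that test can give, and an adjusted p of 0.00113. RNY1 to RNY3 was 0.33 higher (exact permutation test, adjusted p = 0.0018) and RNY4 to RNY5 differed by -0.28 (exact permutation test, adjusted p = 0.0376), and in these 2 the libraries overlapped. Of 20 alternatives, 12 kept the call for RNY4 to RNY5, which was lost without any 1 WT vesicle library (exact permutation test, adjusted p = 0.168 to 0.191), without ATG7-/- cell replicate 1, without any 1 ATG12-/- cell library and with a replicate block. By genotype this ratio was lower in vesicles than in cells in WT (-2.11 and -1.55) and ATG12-/- (-1.43 and -0.99), and higher in ATG7-/- (-1.13 and -1.29).

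**Figure D4:**
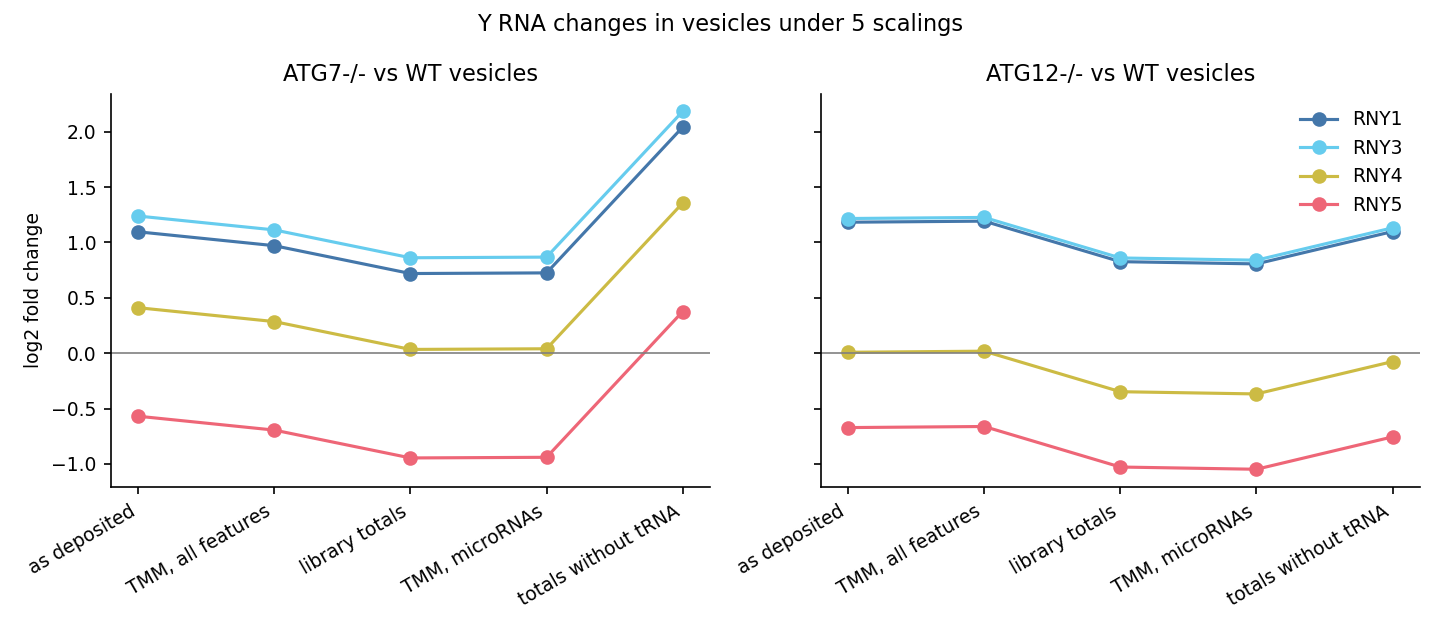
Log2 fold change of each Y RNA in ATG7-/- vesicles (left) and ATG12-/- vesicles (right) against WT vesicles (y axis) under 5 ways of scaling the libraries (x axis). Lines join 1 RNA. RNY1 and RNY3 stay above 0 under every scaling, RNY5 stays below 0 except with totals without tRNA genes in ATG7-/-, and the lines keep their distances because scaling moves all 4 RNAs together.

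Within vesicles the direction of RNY1 and RNY3 did not depend on the scaling. Over the 5 scalings their log2 fold changes ran from 0.72 to 2.04 and from 0.86 to 2.18 in ATG7-/- vesicles and from 0.81 to 1.19 and from 0.84 to 1.23 in ATG12-/- vesicles, and all were called. The call for RNY4 and the direction of RNY5 in ATG7-/- vesicles did depend on it.

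tRNA genes took very different shares of the libraries, which bears on every share of all reads. They held 50.0% ± 6.01 of reads in WT vesicles, 80.0% ± 2.26 in ATG7-/- and 58.8% ± 2.15 in ATG12-/- vesicles, and from 22.1 to 32.4% in the 9 cell libraries. The 4 Y RNAs together held 1.34, 1.79 and 1.61% of all reads in WT vesicles, 1.28, 1.36 and 1.495% in ATG7-/- and 1.32, 1.34 and 1.27% in ATG12-/- vesicles. In cells they held 3.28% ± 0.284, 4.18% ± 0.508 and 3.88% ± 0.125. The vesicle share minus the cell share was -2.36 percentage points (exact permutation test within genotypes, p = 0.00025, the smallest possible, adjusted p = 0.00075 over 3 tests). With the deposited size factors the direction was the reverse. Summed over the 4 Y RNAs, cells held 33258 ± 2649 normalised reads (SD, n = 3) in WT, 39918 ± 6086 in ATG7-/- and 33594 ± 959 in ATG12-/-. Vesicles of the same genotypes held more, at 45713, 51988 and 48834.

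The share in knockout vesicles minus that in WT vesicles was -0.234 percentage points, with overlapping groups (exact permutation test, p = 0.0476, adjusted p = 0.0476). Knockout cells held 0.748 points more than WT cells, without overlap (exact permutation test, p = 0.0119, the smallest possible, adjusted p = 0.0179). Leaving tRNA reads out of the denominator gave 3.23, 6.95 and 3.19% as means of WT, ATG7-/- and ATG12-/- vesicles and 4.32, 5.74 and 5.69% in cells. The vesicle difference between knockout and WT then turned to 1.84 points (exact permutation test, adjusted p = 0.25), and the difference between vesicles and cells shrank to -0.793 points (exact permutation test, adjusted p = 0.179).

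Set in order of group means, neighbours often could not be separated. For RNY1 the order was ATG7-/- cells, ATG12-/- vesicles, ATG7-/- vesicles, WT cells and ATG12-/- cells, all overlapping their neighbours, with WT vesicles below and separate (4917 ± 754 normalised reads, SD, n = 3). For RNY3, ATG7-/- cells (16427 ± 2472) and ATG12-/- cells (16182 ± 371) led, ATG7-/- vesicles, WT cells and ATG12-/- vesicles followed as an overlapping run of 13734, 13471 and 13456, and WT vesicles (5836 ± 864) were separate at the bottom. RNY4 was highest in ATG7-/- vesicles (8675 ± 157), then overlapped between ATG12-/- (6574 ± 444) and WT vesicles (6550 ± 678), then dropped to ATG7-/- cells (3550 ± 662) and to an overlapping pair of ATG12-/- (2703 ± 337) and WT cells (2652 ± 343). RNY5 went from WT vesicles (28411 ± 4145) to ATG7-/- (19084 ± 2074) and ATG12-/- vesicles (17724 ± 1081), which overlapped, and then to the 3 cell groups, which overlapped in turn from 8773 to 5431.

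Division by RNA length left the leading member of each group in place. RNY5 had 338 ± 49.3 normalised reads per base in WT vesicles, against 68.2 for RNY4, 57.2 for RNY3 and 43.5 for RNY1. In ATG7-/- vesicles the levels per base were 227 for RNY5, 135 for RNY3, 92.9 for RNY1 and 90.4 for RNY4, and in ATG12-/- vesicles 211, 132, 98.1 and 68.5. In WT cells RNY3 led with 132 per base, followed by RNY5 (92.7), RNY1 (82.7) and RNY4 (27.6). In ATG7-/- and ATG12-/- cells RNY3 led with 161 and 159 per base. Vesicles and cells thus had different leading members on this scale too.

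With the deposited size factors, all tested members of a list of other polymerase III RNAs had positive fold changes in the vesicles of both knockouts. Of these, 2 of 4 were called in each. Over 4 other scalings the median of all features moved by -0.36 to 0.93 in ATG7-/- and by -0.37 to 0.0097 in ATG12-/- vesicles. The list was not tested under those scalings. Of the list of 11, 5 are in the table, the 4 RNAs listed as vault RNAs and the spliceosomal U6 snRNA, and 4 of these were tested. VTRNA1-1, VTRNA1-2 and VTRNA1-3 belong to large ribonucleoprotein particles. In ATG7-/- vesicles 2 rose and 0 fell: U6 (1.03, SE 0.16, adjusted p = 8.85e-05), from 13654 ± 2647 to 28027 ± 6083 normalised reads, and VTRNA1-2 (0.73, SE 0.13, adjusted p = 0.000255), from 232 ± 24.1 to 385 ± 15.7. In ATG12-/- vesicles 2 rose and 0 fell: U6 again (1.28, SE 0.16, adjusted p = 4.39e-05), to 32769 ± 2383, and VTRNA1-1 (0.48, SE 0.13, adjusted p = 0.00836), from 255 ± 10.7 to 355 ± 16.4. The uncalled members stood at 0.31 (VTRNA1-1) and 0.40 (VTRNA1-3) in ATG7-/- and at 0.22 (VTRNA1-2) and 0.33 (VTRNA1-3) in ATG12-/- vesicles. The median of the list was 0.57 and 0.40, beside 0.11 and 0.05 over all features, of which 62.5 and 43.6% were called.

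In cells 2 vault RNAs were called in each knockout, where 16.8% (ATG7-/-) and 25.7% (ATG12-/-) of all features were called. VTRNA1-2 rose in ATG7-/- cells (1.19, SE 0.20, adjusted p = 0.00146) and VTRNA1-1 fell (-1.04, SE 0.21, adjusted p = 0.00515). In ATG12-/- cells VTRNA1-2 (-0.73, SE 0.20, adjusted p = 0.0179) and VTRNA1-3 (-0.61, SE 0.21, adjusted p = 0.0486) fell. U6 was not called in either, at 0.11 (adjusted p = 0.658) and 0.32 (adjusted p = 0.152). VTRNA2-1 held too few reads to be tested.

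Of the tRNA genes, also polymerase III products, 467 of 622 were tested in vesicles. In ATG7-/- vesicles 241 rose and 6 fell (median log2 fold change 0.47), so that 52.9% were called, beside 62.5% of all features. In ATG12-/- vesicles 133 rose and 40 fell (median 0.15), which is 37.0%, beside 43.6%. Of the 5 snRNAs made by polymerase II, 0 were called higher and 4 lower in ATG7-/- vesicles (median -0.56), and 2 higher and 2 lower in ATG12-/- vesicles (median -0.01), beside the same shares of all features. Of 2 microRNA names once given to Y RNA fragments, 0 were matched in the table.

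The features whose levels followed each Y RNA most closely over the 18 libraries were mostly tRNA genes, which made up 56.8% of the candidates. They were ranked by Pearson's r of log2(normalised reads + 1) among 586 features with a mean of at least 100, given here as a description of libraries that share compartment, genotype and scaling. RNY4 had the closest partners, tRNA-Gln-CTG-1-2 (r = 0.98), tRNA-Gln-TTG-1-1 (r = 0.98) and tRNA-Lys-CTT-3-1 (r = 0.98). RNY1 was closest to tRNA-Tyr-GTA-5-5 (r = 0.91), tRNA-Val-AAC-2-1 (r = 0.80) and tRNA-Pro-TGG-3-3 (r = 0.80). RNY3 had the same 3 partners, at 0.89 for tRNA-Tyr-GTA-5-5, 0.91 for tRNA-Val-AAC-2-1 and 0.89 for tRNA-Pro-TGG-3-3. Over the 9 vesicle libraries these partners had r = 0.95 to 0.98 with RNY1 and 0.96 to 0.97 with RNY3. Over the 9 cell libraries the likeness was lower, at 0.53 (tRNA-Tyr-GTA-5-5), -0.20 (tRNA-Val-AAC-2-1) and -0.74 (tRNA-Pro-TGG-3-3) for RNY1 and 0.77, -0.15 and -0.099 for RNY3. The partners of RNY4 had r = 0.96 (tRNA-Gln-CTG-1-2), 0.96 (tRNA-Gln-TTG-1-1) and 0.96 (tRNA-Lys-CTT-3-1) over vesicle and 0.73, 0.67 and 0.79 over cell libraries.

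RNY5 was closest to tRNA-Gln-CTG-4-2 (r = 0.95), hsa-miR-6724-5p (r = 0.92) and tRNA-His-GTG-1-4 (r = 0.92). Over the 9 vesicle libraries alone tRNA-Gln-CTG-4-2 had r = 0.34 with RNY5, and over the 9 cell libraries r = 0.79. The values were 0.69 and -0.64 for hsa-miR-6724-5p and 0.32 and 0.51 for tRNA-His-GTG-1-4. Among the Y RNAs, RNY1 and RNY3 had r = 0.93 over the 18 libraries and 0.99 over the vesicle libraries. RNY4 and RNY5 had r = 0.91 over the 18 libraries and -0.21 over the vesicle libraries, where RNY5 ran against RNY1 (r = -0.92) and RNY3 (r = -0.93).

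MicroRNAs of blood and liver were fixed as markers for RNA that serum could bring into a vesicle preparation. With the deposited size factors their summed level was higher in knockout than in WT vesicles, as were RNY1 and RNY3. RNY5 was lower in both knockouts (-0.57 and -0.67), and RNY4 was higher in ATG7-/- (0.41) and not called in ATG12-/- vesicles (0.01). Of 9 markers 8 were matched in the table, with a sum of 90.5 to 136 normalised reads in WT vesicles, 182 to 264 in ATG7-/- vesicles and 251 to 330 in ATG12-/- vesicles, against 1.27 to 11.4 in the 9 cell libraries. Of the 3 that could be tested in vesicles, 2 rose in each knockout, where 62.5% (ATG7-/-) and 43.6% (ATG12-/-) of all features were called. These were hsa-miR-486-5p (1.17 and 1.59) and hsa-miR-150-5p (0.86 and 1.31), while hsa-miR-223-3p stood at -0.049 (adjusted p = 0.926) and 0.56 (adjusted p = 0.298). The erythroid hsa-miR-144-3p was at 0 in ATG7-/- vesicles and held at most 1 read in any WT vesicle library, too few for a contrast. By comparison, hsa-miR-144-5p had means of 0.48 in WT, 1.27 in ATG7-/- and 1.95 in ATG12-/- vesicles. Those of hsa-miR-142-5p were 2.85, 6.87 and 5.07. Too low to be tested, hsa-miR-122-5p had means of 4.76 in WT, 8.07 in ATG7-/- and 5.24 in ATG12-/- vesicles. The part of these markers in the Y RNA changes was not tested.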

How the data were processed

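Small RNA was sequenced from 9 vesicle and 9 cell libraries. The tools named in the submitters' processing notes are cutadapt 2.3, Bowtie2 2.3, DESeq2 and bedtools, and the builds are hg38 and GRCh38. Their order, the annotation used and the handling of reads with several matches are not given in the sources used here. The deposited table holds a scaled signal: in each library 100.0% of the values were a whole multiple of the lowest one above 0, within a tolerance of 1e-06, and size factors recomputed from those multiples matched. Multiples were read as counts of reads, scaled in each library by a single size factor, so 1 read equals 0.477 to 1.89 normalised reads. Every column was mapped to a sample by its title.

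The main test was limma 3.58.1 (R 4.3.3) with an intensity trend on log2(value + 1), on features with a value of at least 10 in at least 3 fitted libraries, with Benjamini-Hochberg adjustment over all features. Vesicle comparisons used the 9 vesicle libraries, cell comparisons the 9 cell libraries, and comparisons across them all 18. On the recovered reads, with the deposited size factors, edgeR 4.0.16 called 536 and DESeq2 1.42.0 called 529 of 850 features in ATG7-/- vesicles, against 531 by limma, and 387 and 382 against 371 in ATG12-/- vesicles. Shares and ratios were compared by two-sided exact permutation tests that ran through every regrouping (Python 3.11.15, numpy 2.4.6). The script was tested on simulated data. P-values measure the spread between these libraries.

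The members and lists were chosen with earlier results of these data known. The text names the 4 Y RNAs, the vault RNAs and U6, and for each Y RNA the 3 features outside the family with the highest correlation, with tRNA genes of 1 anticodon counted once. Positions come from GENCODE release 29 and RefSeq, sequences from GENCODE release 29 (that of RNY3 is not reported here), and folds from RNAfold 2.7.2. Alternatives covered the pseudocount (0.5, 5), the filter (none, 50), the scaling (library totals, TMM over all features, TMM over microRNAs and, added after seeing the data, totals without tRNA genes), the test, the libraries in the fit, the replicate block and each library left out.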

Additional observations from a re-analysis of the deposited data

Results flagged for a closer look

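In 5 cases the change of a Y RNA between knockout and WT differed between vesicles and cells by limma's test of the difference, fitted over all 18 libraries. For RNY1 the vesicle change exceeded the cell change by 0.85 on the log2 scale in ATG7-/- and by 1.19 in ATG12-/-. For RNY3 the excess was 0.96 in ATG7-/- and 0.95 in ATG12-/-. For RNY5 the vesicle change in ATG7-/- was more negative than the cell change, with a difference of -0.73. With library totals the RNY1 and RNY3 differences had the same sign but were smaller, from 0.37 to 0.60, and only that of RNY1 in ATG12-/- was still called.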

How the results depend on the processing

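Over 884 combinations of a result and an alternative, 773 kept direction and side of the threshold, 25 lost a call, 28 gained one and 58 changed sign. The cause of these changes was not tested. RNY1 and RNY3 were called higher in the vesicles of both knockouts under every alternative run. Counting depth limits these values little, since the lowest was 2805 reads.

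With library totals the number of Y RNAs called became 2 in ATG7-/- cells and 1 in ATG12-/- cells (from 0), and 0 between knockout cells (from 1). It became 2 between WT vesicles and cells (from 4), 4 between ATG7-/- vesicles and cells (from 2) and 1 for the ATG7-/- vesicle change minus the cell change (from 3). Counts that changed by a smaller factor are left out here and in the paragraphs below. Among these, RNY4 lost its call in ATG7-/- vesicles (0.03) and gained one in ATG12-/- vesicles (-0.35). Signs turned for RNY4 in ATG12-/- against WT vesicles (-0.35), RNY1 in ATG12-/- against WT cells (0.22), RNY3 between knockout cells (0.13), RNY4 between WT vesicles and cells (-0.21), RNY4 (-0.68) and RNY5 (-0.84) between ATG7-/- vesicles and cells, and RNY1 (-1.85), RNY4 (-0.82) and RNY5 (-0.38) between ATG12-/- vesicles and cells.

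With totals without tRNA genes, added after seeing the data, the counts were 4 between knockout vesicles (from 1), 2 in ATG7-/- and 2 in ATG12-/- cells, 0 between knockout cells and 1 for the ATG12-/- vesicle change minus the cell change (from 2). Signs turned for RNY5 in ATG7-/- (0.38) and RNY4 in ATG12-/- vesicles (-0.076), RNY1 between knockout vesicles (-0.94), RNY1 in ATG12-/- cells (0.38), RNY3 between knockout cells (0.22), RNY1 (-1.12) and RNY4 (-0.086) between ATG12-/- vesicles and cells, and the ATG7-/- vesicle change minus the cell change of RNY4 (0.79) and RNY5 (0.070). The Y RNA share without tRNA reads differed by -0.793 points between vesicles and cells and by 1.84 points between knockout and WT vesicles.

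With TMM factors from microRNAs the counts were 0 between knockout vesicles, 1 in ATG12-/- cells and 0 between knockout cells. Signs turned for RNY4 in ATG12-/- vesicles (-0.37), for RNY1 (-0.29), RNY3 (-0.26), RNY4 (-0.12) and RNY5 (-0.38) in ATG7-/- cells, RNY4 in ATG12-/- cells (-0.23), RNY1 (0.026) and RNY3 (0.26) between knockout cells, RNY1 (0.33) and RNY3 (0.16) between ATG7-/- vesicles and cells, and RNY4 for the ATG7-/- vesicle change minus the cell change (0.29). With TMM over all features the counts were 1 in ATG12-/- cells and 0 between knockout cells, and signs turned for RNY3 (0.11) and RNY5 (0.032) between knockout vesicles, RNY1 in ATG12-/- cells (0.14) and RNY3 between knockout cells (0.087). Rescaling shifted the median over all tested features by -2.07 to 0.93 on the log2 scale. The share of calls that were higher, 53.7% in ATG7-/- and 51.8% in ATG12-/- vesicles, ran from 27.9 to 77.4% and from 15.7 to 52.0% over 4 scalings. It was 53.3% between knockout vesicles (7.29 to 61.9%), 50.3% in ATG7-/- cells (3.21 to 74.8%), 29.2% in ATG12-/- cells (5.70 to 81.2%), 28.1% between knockout cells (47.3 to 80.8%), and 47.6, 48.3 and 48.8% between vesicles and cells of WT (19.4 to 49.8%), ATG7-/- (17.7 to 55.0%) and ATG12-/- (14.3 to 51.9%). For the vesicle change minus the cell change it was 47.8% in ATG7-/- (17.9 to 75.2%) and 54.4% in ATG12-/- (6.94 to 52.3%). In ATG7-/- cells the number of features called went from 143 to 560 with TMM from microRNAs.

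In ATG12-/- cells 1 Y RNA was called by DESeq2 and with all 18 libraries in the fit. Between knockout cells 0 were called by limma without trend and with no filter. Between ATG12-/- vesicles and cells 4 were called when only those 6 libraries were fitted.

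Leaving out 1 library gave 0 to 2 calls between knockout cells, 0 to 1 in ATG12-/- cells, 0 to 1 in ATG7-/- cells, 0 to 5 ratios called between knockout and WT vesicles and 0 to 1 in cells. The Y RNA share differed between knockout and WT cells by 0.589 (without WT replicate 3, adjusted p = 0.107) to 0.864 points and between knockout and WT vesicles by -0.355 to -0.127, called only without WT replicate 1. Signs turned only for uncalled values. These ran from -0.084 to 0.036 for RNY1, from -0.081 to 0.13 for RNY4 in ATG12-/- cells and from -0.019 to 0.33 for RNY5 in ATG7-/- cells. They ran from -0.028 to 0.17 for RNY1 and -0.12 to 0.055 for RNY3 between knockout vesicles, from -0.14 to 0.064 for RNY3 between knockout cells, from -0.23 to 0.058 for RNY1 between ATG7-/- vesicles and cells and from -0.056 to 0.088 for RNY4 in ATG12-/- vesicles. For the vesicle change minus the cell change they ran from -0.099 to 0.14 for RNY4 in ATG7-/-, from -0.12 to 0.089 for RNY4 and from -0.28 to 0.0098 for RNY5 in ATG12-/-. The log2 ratio of RNY3 to RNY4 between knockout and WT cells ran from -0.033 to 0.14.

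Replicate numbers did not pair the samples: in 0 of 9 comparisons did every same-numbered pair correlate above 0.1, and r ran from -0.22 to 0.19. Each sample correlated best with its own number only in ATG12-/- against WT vesicles, a hint from the data. With a replicate block limma called 1 Y RNA in ATG12-/- cells (RNY5, -0.53, adjusted p = 0.0498). The ratio of RNY4 to RNY5 between vesicles and cells lost its call (exact permutation test, adjusted p = 0.111). Between knockout and WT vesicles 0 ratios were called (exact permutation test, adjusted p = 0.0667). The smallest unadjusted p that this block allows there is 0.037, so the missing calls say little about these ratios.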
